A study of Mus musculus with 12 samples.

Results

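The neuregulins Nrg1, Nrg2 and Nrg3 and the ErbB receptors Erbb2, Erbb3 and Erbb4 were described in single nuclei of the mouse cortex at P21. They were taken by symbol, and all 6 were found among the 55335 genes counted, with the transcript of the injected virus left aside. The nuclei came from 12 mice aged 21 days, 6 WT and 6 Het animals of the MYT1L S710fsX line, which were generally littermates, and each genotype had 3 males and 3 females. The Het animals carry a frameshift in 1 copy of Myt1l, which encodes a neuronal transcription factor, and represent a single mutant line on a C57BL/6 background. As newborn pups, the animals of both genotypes had received AAV9 that carried calling card reagents with tdTomato. Their cortices were flash frozen, the nuclei were fixed and stored as samples were collected, and those of all animals of this age were then barcoded and sequenced together. The labels do not tie the animals to litters.

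Neuregulins are membrane-anchored growth factors of the EGF family that are released by proteolytic cleavage or act at cell contacts. Among them they bind the receptor tyrosine kinases ErbB3 and ErbB4, though not each of them binds both. ErbB2 binds no ligand of its own and signals as a partner of the others, while ErbB3 has little kinase activity and depends on a partner. In the cortex this pathway is best known for ErbB4 on GABAergic interneurons, where it shapes the wiring of Pvalb cells, and for ErbB3 in myelinating glia.

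The genes were counted over whole gene bodies of very different size, so levels were compared between classes or animals for 1 gene and never between genes. Levels are given as CPM, which scales the UMIs of a gene to the total UMIs of the same class in the same animal. On mm10 (GENCODE M21), Nrg1 (ENSMUSG00000062991.9 in the files, version ENSMUSG00000062991.7 in the annotation that gives the position) lies on the minus strand of chromosome 8 from 31814551 to 32884029, a span of 1069 kb. Nrg3 (ENSMUSG00000041014.17) spans 1104 kb of the minus strand of chromosome 14, from 38368952 to 39473088, and Nrg2 (ENSMUSG00000060275.13) spans 179.7 kb of the minus strand of chromosome 18, from 36017652 to 36197380. Erbb4 (ENSMUSG00000062209.15) takes up 1076 kb of the minus strand of chromosome 1, from 68032186 to 69108059. The remaining receptors are short: Erbb3 (ENSMUSG00000018166.8) spans 22.1 kb of chromosome 10 on the minus strand, from 128567523 to 128589652, and Erbb2 (ENSMUSG00000062312.5) 25.2 kb of chromosome 11 on the plus strand, from 98412470 to 98437716.

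Over all barcodes, 3807194 UMIs were counted for Nrg3, 2326481 for Nrg1, 673424 for Erbb4, 82872 for Nrg2, 1537 for Erbb3 and 179 for Erbb2. Of the single entries, 77.5% were whole numbers for Nrg3, 79.5% for Nrg1 and 79.8% for Erbb4, and the others held a part of a UMI that had been divided among genes. An antisense gene, Nrg3os, lies inside Nrg3 and had 1.09% as many UMIs. Whether strand was used in counting is not given in the sources used here, so reads of Nrg3 and Nrg3os may not have been told apart. The 3′ end of Erbb2 overlaps that of Mien1 on the opposite strand, which had 156 UMIs.

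Total UMIs were 23425407 to 59947430 in WT (median 37762416) and 36293890 to 56950643 in Het animals (median 42957587), with no difference between genotypes that passed an exact permutation test (two-sided, p = 0.473). Myt1l was at 823 to 990.1 CPM in WT against 925 to 1060.3 CPM in Het animals, and was higher in Het by the exact permutation test (two-sided, p = 0.0195, n = 6 each). Its counts do not separate the 2 alleles and so do not check the genotypes. Xist and Uty matched the labelled sex in all 12 animals. Limits on UMIs, genes and mitochondrial UMIs kept 34860 of 78743 barcodes, and 0 barcodes were shared between animals. Of the kept nuclei, 26122 (74.9%) received a class from marker UMIs, 5894 (16.9%) held markers of several broad classes and were left out, and 2844 met no class. None of the members is a marker. Each class is written with the ending -like. At least 1 of its own markers was among its 10 leading genes in all 21 classes described here. The same markers set the classes, so their place among the leading genes does not test the names. The 21 classes were those with at least 10 nuclei in at least 3 animals of each genotype. These were 17614 excitatory neuron-like, 5434 inhibitory neuron-like, 2279 oligodendrocyte lineage-like, 486 astrocyte-like and 201 microglia-like nuclei, and 16 finer classes of the first 3. Of 25435 nuclei in broad classes with finer ones, vascular nuclei included, 12947 met no finer class. These count in their broad class only, so levels of the finer classes leave them out. L5 ET-like (42 nuclei), Sncg-like (39) and vascular (108) nuclei were too few. P-values come from tests with the animal as the replicate, and limits given for a count of 0 cover counting error only.

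Nrg1 was high in excitatory neuron-like nuclei and low in most interneurons and in mature oligodendrocytes. In WT animals it was highest in striatal projection neuron-like nuclei, at 7983 ± 2359.5 CPM (SD, n = 6 here and below unless given), a class named by markers of striatal neurons although cortex was dissected. It followed in L6 IT-like (6755 ± 887, n = 3), L4/5 IT-like (6374 ± 1488) and L2/3 IT-like nuclei (6072 ± 672). Among the other excitatory classes it was at 5113 ± 1008 CPM in Car3-like, 4657 ± 441 in L6b-like (n = 4), 3748 ± 464 in L6 CT-like, 3134 ± 711 in CA pyramidal-like and 2865 ± 328 in L5 NP-like nuclei. The 3 intratelencephalic (IT) classes thus had the highest means among the excitatory classes. Interneurons were lower and differed among themselves: Nrg1 was at 1522 ± 80.7 CPM in Lamp5-like, 644 ± 159 in Pvalb-like, 550.1 ± 396 in Vip-like (n = 5) and 327 ± 162 in Sst-like nuclei. It fell along the oligodendrocyte lineage from 1640.4 ± 338 CPM in OPC-like (n = 5) to 666 ± 318 in newly formed and 144 ± 138 in mature oligodendrocyte-like nuclei. Of the 17 neighbouring pairs in this order over 18 classes, 2 were apart by more than the sum of both SDs, namely L6b-like above L6 CT-like and Lamp5-like above newly formed oligodendrocyte-like nuclei.

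Nrg3 was spread more evenly over neurons and reached its highest level in deep layers. It was at 10402 ± 451 CPM in L5 NP-like and 10141 ± 949.6 in L6b-like nuclei (n = 4) of WT animals, and both lay above the next class, L6 CT-like nuclei at 8452 ± 329.6, with a gap between L6b-like and L6 CT-like nuclei over the sum of their SDs. L4/5 IT-like (7727 ± 401), Sst-like (7673 ± 594), CA pyramidal-like (7362 ± 512), Car3-like (7247 ± 776), L2/3 IT-like (7219.7 ± 432), Pvalb-like (6808 ± 389) and L6 IT-like nuclei (6541 ± 470.5, n = 3) followed with no such gap between neighbours. Vip-like (4476 ± 1129, n = 5) and Lamp5-like nuclei (4456 ± 478) held less Nrg3 than the Sst-like and Pvalb-like ones. Striatal projection neuron-like nuclei, the highest class for Nrg1, were the lowest neurons for Nrg3, at 2719 ± 608 CPM. In the oligodendrocyte lineage it was at 1848 ± 261 CPM in OPC-like (n = 5), 267 ± 285 in newly formed and 240.1 ± 109.8 in mature oligodendrocyte-like nuclei. The newly formed mean was raised by an animal at 810 CPM, and the medians of these last classes were 138 and 220 CPM.

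Nrg2 was measured in every class with a narrow range. WT means ran from 331 ± 65.8 CPM in Lamp5-like and 305 ± 87.6 in striatal projection neuron-like nuclei down to 104 ± 45.1 in CA pyramidal-like nuclei, with astrocyte-like nuclei (218 ± 40.6) among the upper classes. L2/3 IT-like nuclei were at 201 ± 32.8 CPM, Pvalb-like at 189 ± 31.4 and L6 CT-like at 163 ± 24.8. Only newly formed (31.1 ± 27.8) and mature oligodendrocyte-like nuclei (8.04 ± 9.50) lay far under this range. No neighbouring pair of its 18 classes was apart by more than both SDs.

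**Figure D1:**
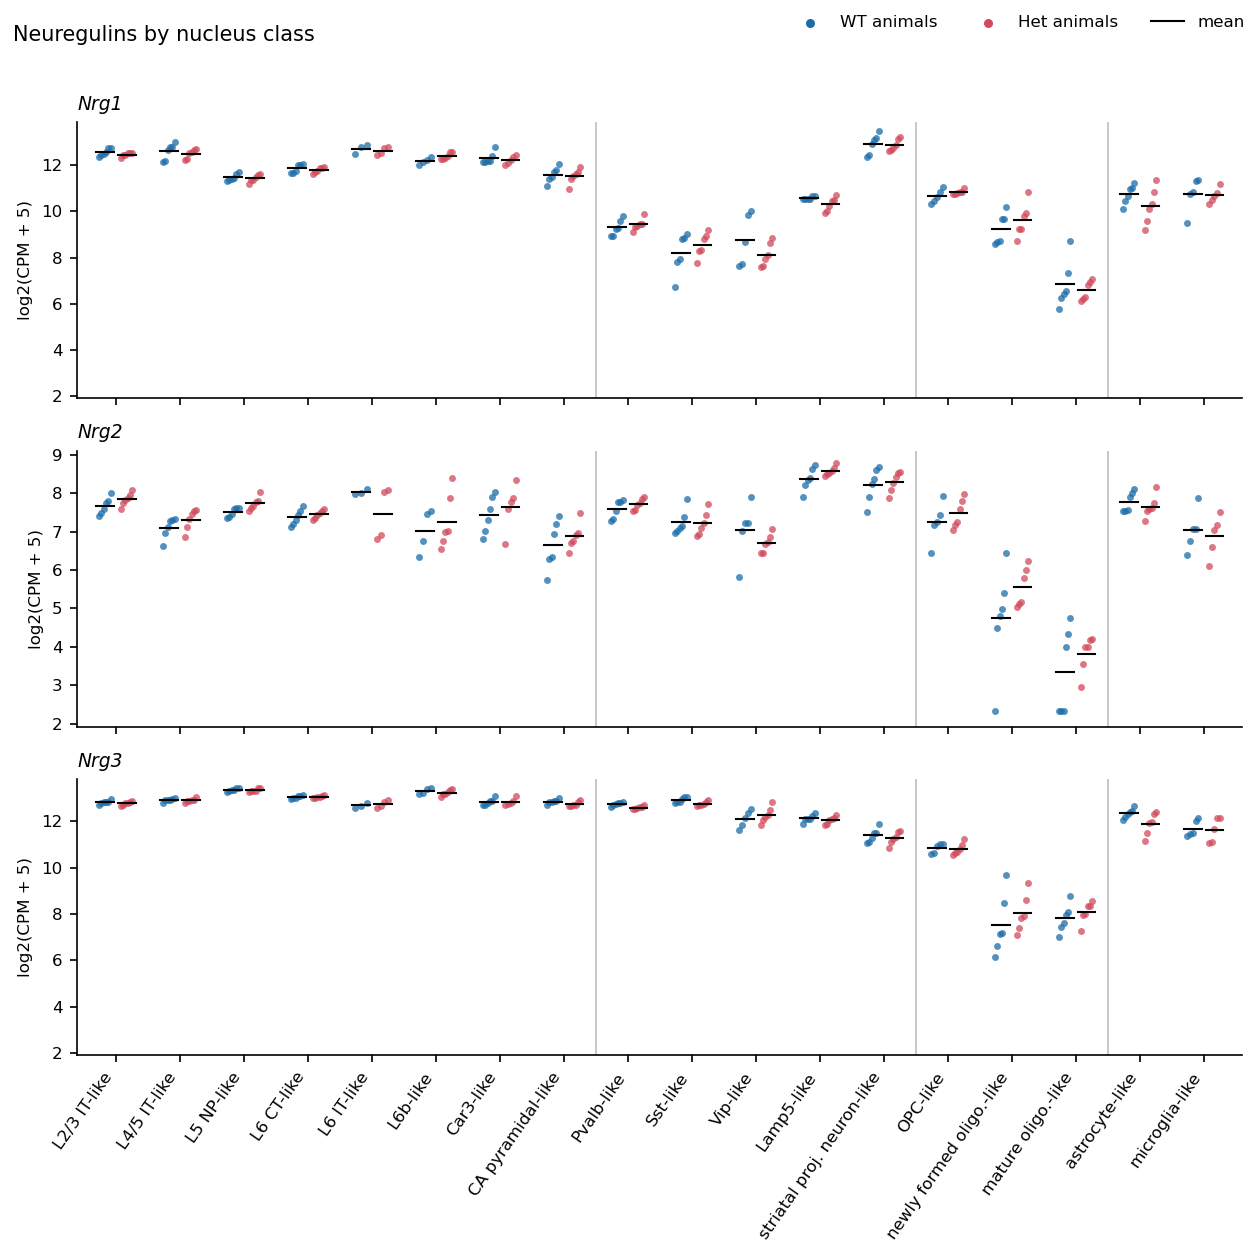
Levels of Nrg1, Nrg2 and Nrg3 as log2(CPM + 5) on the vertical axis in 18 classes of nuclei on the horizontal axis. Each point is an animal with at least 10 nuclei of the class (WT blue, Het red), black lines are means and grey lines divide excitatory, inhibitory, oligodendrocyte lineage and other classes. All 3 genes are low in mature oligodendrocyte-like nuclei, and Nrg1 lies far lower in Sst-like than in striatal projection neuron-like nuclei.

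Erbb4, the neuregulin receptor with both a binding site and an active kinase, was concentrated in interneurons and the oligodendrocyte lineage. In WT animals it was at 15793 ± 1736 CPM in Pvalb-like, 13459 ± 997 in Lamp5-like and 12155 ± 1685 in Vip-like nuclei (n = 5). Sst-like nuclei stood apart from these, at 970.2 ± 559 CPM. Their WT animals ranged from 0 to 1663 CPM with a median of 1003, and the animal at 0 had 10 Sst-like nuclei, in which 3 UMIs, the limit a count of 0 allows, would be 74.9 CPM. The Het animals ranged from 706 to 1194 CPM. Mature oligodendrocyte-like (6642 ± 792), OPC-like (6339 ± 487, n = 5) and newly formed oligodendrocyte-like nuclei (5968 ± 846) held similar levels, with gaps over both SDs to the interneurons above and to the classes below. Striatal projection neuron-like nuclei were at 1567 ± 693 CPM. The excitatory classes were low, from 204 ± 313 CPM in L6 IT-like (n = 3) and 91.7 ± 147 in L6b-like (n = 4) to 43.1 ± 13.9 in L6 CT-like and 17.7 ± 16.5 in CA pyramidal-like nuclei. The L6 IT-like and L6b-like means were carried by the highest animal of each, at 566 and 312 CPM, with medians of 29.2 and 27.6.

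Erbb3, the partner-dependent receptor, was found mainly in mature oligodendrocyte-like nuclei. WT animals had 151 to 279 CPM there with a median of 175, and Het animals 134 to 212 with a median of 172, so the genotypes overlapped. Newly formed oligodendrocyte-like nuclei held 29.5 ± 28.5 CPM in WT and OPC-like nuclei 14.4 ± 9.17 (n = 5). These low levels rest on 15.5 and 6 UMIs in all WT animals, against 219 in mature oligodendrocyte-like nuclei. Neurons were near 0: 37.6 UMIs in 7767 excitatory neuron-like and 10.3 in 2327 inhibitory neuron-like nuclei of WT animals, or 1.45 ± 1.07 and 1.21 ± 0.821 CPM. Astrocyte-like nuclei of WT animals held 0 UMIs, which allows up to 5.02 CPM.

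Erbb2, the receptor without a ligand, was barely detected in any class. WT animals had 11.5 UMIs in all excitatory neuron-like, 3.5 in inhibitory neuron-like, 1 in oligodendrocyte lineage-like and 0 in astrocyte-like and microglia-like nuclei. At these counts neither its distribution over classes nor a change with genotype was detectable.

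**Figure D2:**
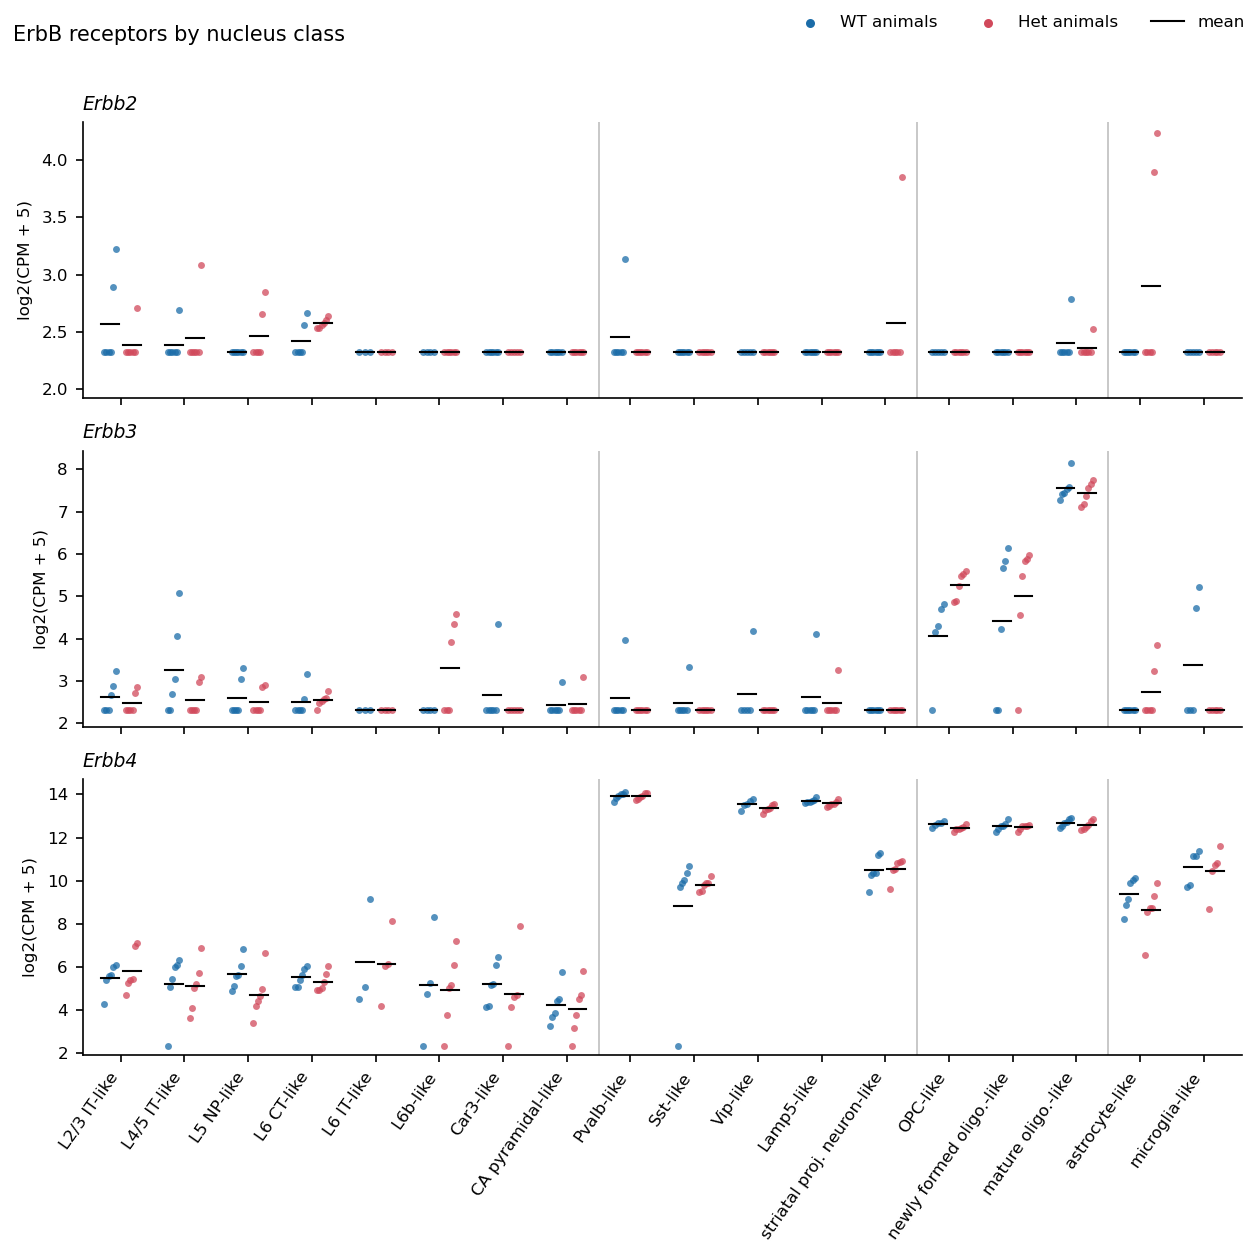
Levels of Erbb2, Erbb3 and Erbb4 as log2(CPM + 5) on the vertical axis (each panel has its own range) in the same 18 classes. Points are animals (WT blue, Het red) and black lines means. Erbb4 is high in Pvalb-like, Vip-like and Lamp5-like nuclei and in the oligodendrocyte lineage, Erbb3 peaks in mature oligodendrocyte-like nuclei, and most animals are at 0 UMIs, the bottom of the panel, for Erbb2.

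Pairs of classes were compared within animals for 5 contrasts and 6 genes, with exact sign-flip permutation tests (two-sided, 30 tests, Benjamini-Hochberg). For 12 animals the smallest possible p was 0.000488 and for 11 animals 0.000977. Of the 30 differences, 18 passed at an adjusted p under 0.05, and none of the 10 for Erbb2 and for Erbb3 passed apart from Erbb3 along the oligodendrocyte lineage. Differences below are on the scale of log2(CPM + 5).

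Between inhibitory and excitatory neurons, Erbb4 and Nrg1 differed in opposite directions. Erbb4 was at 8460.1 ± 1051 CPM in inhibitory against 65.04 ± 15.7 in excitatory neuron-like nuclei, a log2 difference of 6.94 ± 0.35 (SD, 12 animals), higher in 12 of 12 animals (exact permutation test, adjusted p = 0.00146). Nrg1 was lower in inhibitory nuclei, 1499 ± 266 against 4570.4 ± 430.3 CPM, a log2 difference of -1.62 ± 0.36 with the same sign in 12 of 12 animals (adjusted p = 0.00146, exact permutation). Nrg3 was lower by a smaller margin in inhibitory nuclei in 12 of 12 animals (log2 difference -0.48 ± 0.18, adjusted p = 0.00146 by the exact permutation test). Nrg2 was higher in inhibitory nuclei in 11 of 12 animals, by 0.32 ± 0.19 on the log2 scale (adjusted p = 0.00259, exact permutation).

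Among interneurons, Pvalb-like nuclei held 15639 ± 1504 CPM of Erbb4 and Sst-like nuclei 936 ± 397, higher in Pvalb-like nuclei in 12 of 12 animals, with a log2 difference of 4.604 ± 2.22 (adjusted p = 0.00146, exact permutation). Without the WT animal at 0 this difference was 3.97. Nrg1 was also higher in Pvalb-like nuclei (1.00 ± 0.68 on the log2 scale, 11 of 12 animals, adjusted p = 0.00195 by exact permutation, and 0.57 with no upper limits on UMIs or genes), as was Nrg2 (0.42 ± 0.32, 10 of 12 animals, adjusted p = 0.00326 by exact permutation). Nrg3 was lower in Pvalb-like than in Sst-like nuclei in 12 of 12 animals, by a small log2 difference of -0.17 ± 0.10 (adjusted p = 0.00146, exact permutation).

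Between L6 CT-like and L2/3 IT-like nuclei, Nrg1 and Nrg3 differed in opposite directions, while L6 IT-like nuclei held much Nrg1 and comparatively little Nrg3, as given above. L6 CT-like nuclei held 3649.9 ± 382 CPM of Nrg1 against 5855 ± 552 in L2/3 IT-like nuclei (log2 difference -0.68 ± 0.18, lower in 12 of 12 animals) and 8452 ± 301 CPM of Nrg3 against 7089 ± 392 (0.25 ± 0.08, higher in 12 of 12 animals), both with an adjusted p of 0.00146 by exact permutation. Nrg2 was lower in L6 CT-like nuclei in 11 of 12 animals (-0.35 ± 0.21, adjusted p = 0.00259 by exact permutation). For Erbb4 the log2 difference was -0.23 ± 0.74, with an adjusted p of 0.442 by exact permutation at 39.8 ± 13.8 and 53.9 ± 37.0 CPM.

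Along the oligodendrocyte lineage, mature nuclei held far less of the ligands and more Erbb3. Against OPC-like nuclei of the same 11 animals, mature oligodendrocyte-like nuclei were lower in Nrg1 (122 ± 102 against 1739 ± 249 CPM, log2 difference -4.02 ± 0.97), Nrg2 (9.64 ± 6.77 against 168 ± 50.7 CPM, -3.68 ± 0.67) and Nrg3 (257 ± 97.0 against 1832.5 ± 298 CPM, -2.88 ± 0.61), each in 11 of 11 animals. Erbb3 was higher in 11 of 11 animals, at 183 ± 39.2 against 25.3 ± 13.4 CPM (2.81 ± 1.13). These 4 differences had an adjusted p of 0.00195 (exact permutation). Erbb4 did not pass, at 6307 ± 823 against 5904 ± 631 CPM, a log2 difference of 0.09 ± 0.26 (adjusted p = 0.391, exact permutation, higher in 7 of 11 animals).

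**Figure D3:**
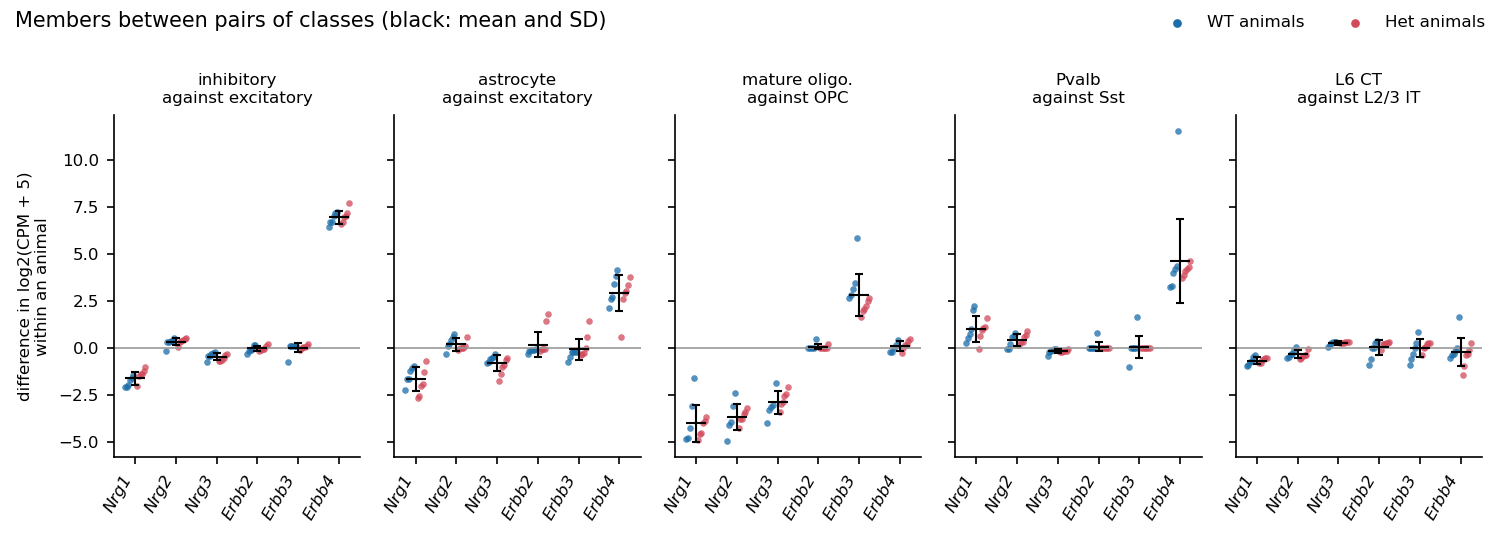
Differences in log2(CPM + 5) of the 6 genes between 2 classes of the same animal (vertical axis) for 5 pairs of classes (panels). Points are animals (WT blue, Het red), and black marks are the mean and SD over both genotypes. Erbb4 in inhibitory against excitatory nuclei lies near 7 in all animals, and the highest point for Erbb4 in Pvalb against Sst is the WT animal with 0 Erbb4 UMIs in 10 Sst-like nuclei.

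Nuclei of glia and other classes also held some neuronal transcripts, and these were set beside the members. The markers used for this also set the classes, and nuclei with mixed markers were left out. That rule limits the shares of the markers but not those of the members, so the shares are not measured alike. In excitatory neuron-like nuclei, Erbb4 was at 0.775% ± 0.187 of its level in inhibitory nuclei of the same animals, and the summed markers of inhibitory neurons were at 0.5497% ± 0.168 of theirs (SD, 12 animals, Erbb4 the higher share in 10 of 12). In astrocyte-like nuclei the shares were 7.18% ± 3.67 for Erbb4 and 6.14% ± 2.63 for the inhibitory markers, with Erbb4 higher in 7 of 12 animals. Astrocyte-like nuclei were higher than excitatory ones in Erbb4 in 12 of 12 animals (log2 difference 2.92 ± 0.94, adjusted p = 0.00146 by exact permutation), at a share of the inhibitory level within the spread of that of the inhibitory markers. In microglia-like nuclei the 2 shares were 20.7% ± 10.1 and 17.9% ± 7.40, Erbb4 being higher in 6 of 10 animals. The part of background RNA in the Erbb4 of these classes was not tested, nor whether background differs between such long genes and the markers.

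In astrocyte-like, microglia-like and oligodendrocyte lineage-like nuclei, ligand shares were larger than those of the excitatory markers, which the class rule holds down. The finer oligodendrocyte classes were not compared in this way, and the part of background RNA in the ligands was not tested. In astrocyte-like nuclei, Nrg3 was at 59.1% ± 14.4, Nrg1 at 34.4% ± 14.7 and Nrg2 at 117% ± 27.9 of the excitatory level, while the excitatory markers were at 9.33% ± 3.34, lower than each ligand in 12 of 12 animals. Against excitatory nuclei, astrocyte-like nuclei had less Nrg1 (log2 difference -1.67 ± 0.64) and less Nrg3 (-0.81 ± 0.41), each lower in 12 of 12 animals with an adjusted p of 0.00146 by exact permutation. With no upper limits on UMIs or genes these were -0.82 and -0.35. Nrg2 was at 209 ± 42.0 against 182 ± 23.6 CPM (0.18 ± 0.33, adjusted p = 0.125 by exact permutation). In microglia-like nuclei, Nrg3 was at 43.5% ± 11.9 and Nrg1 at 39.5% ± 11.3 of the excitatory level, with excitatory markers at 16.1% ± 6.14. Erbb4 in the oligodendrocyte lineage was at 72.8% ± 8.50 of the inhibitory level with inhibitory markers at 2.43% ± 1.27.

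The genes with the most similar pattern were sought over the WT means of the 18 classes, among 6233 genes that reached 50 CPM in a class and were neither members nor markers. Pearson's r is given as a description, since the classes share libraries and depth. For Erbb4 they included Sox2ot (r = 0.92), highest in OPC-like nuclei (3009 CPM), and Zfp536 (0.90), highest in mature oligodendrocyte-like nuclei (3275 CPM). Nrg1 was followed by Kctd1 (0.90), Camk4 (0.89), a calcium/calmodulin-dependent kinase, and Lzts1 (0.89), all highest in striatal projection neuron-like nuclei. For Nrg3 the closest were Chd5 (0.98), a neuronal chromatin remodeller, Fmn2 (0.97) and its own antisense gene Nrg3os (0.97), which may share reads with it. Nrg2 was closest to Rgs7bp (0.95), Fgf14 (0.94) and Grm5 (0.93), a metabotropic glutamate receptor. Erbb3 was closest to Insc (0.97), Cyp3a13 (0.97) and 1500015L24Rik (0.97), all highest in mature oligodendrocyte-like nuclei. Between members, r was -0.69 for Nrg1 with Erbb4 and 0.80 for Nrg2 with Nrg3 over the same classes. With Erbb3, r was -0.88 for Nrg2 and -0.83 for Nrg3. Both ligands were lowest in newly formed and mature oligodendrocyte-like nuclei, where Erbb3 was highest. Among neurons, Nrg2 was highest in Lamp5-like (331 CPM) and striatal projection neuron-like nuclei (305), which had the lowest Nrg3 (4456 and 2719 CPM). The r for neurons alone was not computed.

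Het animals were then compared with WT animals in each class to ask whether loss of 1 copy of Myt1l changed the pathway. By edgeR's quasi-likelihood test with the filter on low counts and all animals, none of the members was called. Of the 126 pairs of a member and a class, 77 passed the filter on low counts: Nrg1 and Nrg3 in 21 classes each, Nrg2 in 17, Erbb4 in 16, Erbb3 in 2 and Erbb2 in 0. A call required an adjusted p under 0.05 and a log2 fold change beyond 0.2 in either direction, and 0 of these 77 were called, beside 63 of 77299 gene and class pairs over all genes (0.0815%). The called share of all genes was 0.231% in excitatory and 0.0502% in inhibitory neuron-like nuclei. At an unadjusted p under 0.05 there were 8 of 77 member pairs, against 6.58% of all pairs, and the smallest adjusted p of a member was 0.602. DESeq2 also called 0 of the 101 member pairs to which it gave an adjusted p, against 150 of 355061 pairs over all genes (0.0422%), and 10 of 111 member pairs (9.01%) had an unadjusted p under 0.05, against 1.23% of all pairs. DESeq2 was run without that filter, and over the 77299 pairs that pass it the shares were 13.0% of members (10 of 77) and 4.36% of all pairs. Log2 fold changes of the members ran from -0.89 to 0.37 with a median of -0.07, where the median over all pairs was -0.00. Erbb4 was lower in Het in 15 of the 16 classes tested (median -0.17) and Nrg2 higher in 15 of 17 (median 0.09), but finer classes are parts of the broad ones and share animals, so these are not independent. Of all gene and class pairs, 49.1% were higher in Het. The 16 classes include excitatory ones, where Erbb4 was low. They also include astrocyte-like and microglia-like nuclei, where the part of background RNA was not tested.

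In inhibitory neuron-like nuclei, 3 members had an unadjusted p under 0.05. The 6 WT animals held 1139 to 1533 CPM of Nrg1 (median 1324) and the 6 Het animals 1129 to 1867 CPM (median 1709). Most Het animals were higher and 1 lay under all WT animals (log2 fold change 0.28, standard error 0.10, edgeR adjusted p = 0.630). Erbb4 was at 6914 to 10297 CPM in WT (median 9115) against 7283 to 8696 CPM in Het animals (median 7842), with all 6 Het animals under the WT median (-0.22, standard error 0.08, edgeR adjusted p = 0.676). Nrg3 was at 4466 to 6549.6 CPM in WT (median 5987) against 4623 to 5914 CPM in Het animals (median 5212), again with 6 of 6 under the WT median (-0.20, standard error 0.09, edgeR adjusted p = 0.819). Without WT male 2, Erbb4 was called in this class (log2 fold change -0.29, edgeR adjusted p = 0.0368), and without the filter on low counts Nrg1 was (0.32, edgeR adjusted p = 0.00238). How many genes were called without WT male 2 is not given here, so this call cannot be set against all genes. Without the filter, 357 of 468195 pairs over all genes and classes were called. With no upper limits on UMIs or genes the log2 fold change of Nrg1 was 0.13.

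The make-up of the inhibitory class moved with genotype at the same time. Striatal projection neuron-like nuclei were 5.22% ± 1.11 of inhibitory neuron-like nuclei in WT and 10.02% ± 2.68 in Het animals (SD, n = 6 each, exact permutation test, two-sided, p = 0.00433), and the 7 markers of this class summed to 1388 to 1547 CPM in WT and 1638 to 1930.3 CPM in Het inhibitory nuclei. In WT animals this class had the highest mean of Nrg1 and the lowest mean of Nrg3 among neurons. Its Erbb4 was at 1567 ± 693 CPM, under the other inhibitory classes except Sst-like nuclei (970.2 ± 559). Without the striatal projection neuron-like nuclei, an alternative chosen after seeing the data, the log2 fold changes were 0.06 for Nrg1, -0.17 for Erbb4 and -0.16 for Nrg3. Inhibitory nuclei that met no finer class stayed in. The part of the class make-up in the changes of the 3 members was not tested. Within striatal projection neuron-like nuclei Nrg1 was at 7983 ± 2359.5 CPM in WT against 7587 ± 1368 CPM in Het animals.

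In the finer interneuron classes described here, the ranges of the genotypes overlapped. Pvalb-like nuclei of WT animals held 12876 to 17702 CPM of Erbb4 (median 16243) and those of Het animals 13857 to 17209 CPM (median 15318), a log2 fold change of -0.05 (standard error 0.07, interval of 2 standard errors -0.19 to 0.10). It was 0.0135 without the filter on low counts and -0.10 to -0.00867 with 1 animal left out. Nrg3 in Pvalb-like nuclei lay under the WT median in all 6 Het animals (6808 ± 389 against 6143 ± 303 CPM, -0.17, standard error 0.07, edgeR adjusted p = 0.847). Nrg1 was at 1463 to 1637 CPM in Lamp5-like nuclei of WT (median 1477) and at 984 to 1662 of Het animals (median 1307), a log2 fold change of -0.27 (standard error 0.11, edgeR adjusted p = 0.659) that was -0.45 at a marker share of 90% and -0.18 without the filter on low counts. In Vip-like nuclei Nrg1 ranged from 194 to 1022 CPM in 5 WT and from 188 to 459.6 CPM in 6 Het animals (-0.89, standard error 0.39, edgeR adjusted p = 0.655), with a wide spread among few nuclei. This fold change was -0.58 without WT female 2 and -0.0451 with no upper limits on UMIs or genes.

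In excitatory neuron-like nuclei, Nrg1 was at 4058 to 5226 CPM in WT (median 4808) against 3778 to 4824 CPM in Het animals (median 4452), a log2 fold change of -0.13 (standard error 0.07, edgeR adjusted p = 0.7103). Nrg3 was at 7738 ± 259.5 CPM in WT against 7616 ± 239.9 CPM in Het animals (-0.04, standard error 0.05, edgeR adjusted p = 0.922), so that 2 standard errors spanned -0.13 to 0.06. The ranges overlapped for both.

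In glia, Erbb4 of OPC-like nuclei was at 5658 to 6956 CPM in 5 WT (median 6478) and 4831 to 6369 in 6 Het animals (median 5474), with all Het animals under the WT median (log2 fold change -0.22, standard error 0.08, edgeR adjusted p = 0.663, and -0.0789 without the filter on low counts). Mature oligodendrocyte-like nuclei had 6642 ± 792 and 6157 ± 902 CPM of Erbb4 (-0.14, standard error 0.10, edgeR adjusted p = 1.00). Erbb3 was at 114 ± 14.9 CPM in WT against 117 ± 20.8 CPM in Het oligodendrocyte lineage-like nuclei (0.01, standard error 0.14, edgeR adjusted p = 1.00). Astrocyte-like nuclei held 5215 ± 766 CPM of Nrg3 in WT and 3894 ± 1227 in Het animals (-0.42, standard error 0.19, edgeR adjusted p = 0.602). Of 121 member and class pairs with at least 1 UMI, the ranges of WT and Het animals did not overlap in 1, where 0.331% of all such gene and class pairs did not. This was Erbb3 in OPC-like nuclei, chosen here after its values were seen, with 0 to 23.4 CPM in 5 WT and 24.001 to 43.7 CPM in 6 Het animals, from 6 and 22 UMIs. It was under the filter on low counts, and without the filter its log2 fold change was 1.08 (standard error 0.67, edgeR adjusted p = 0.657).

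**Figure D4:**
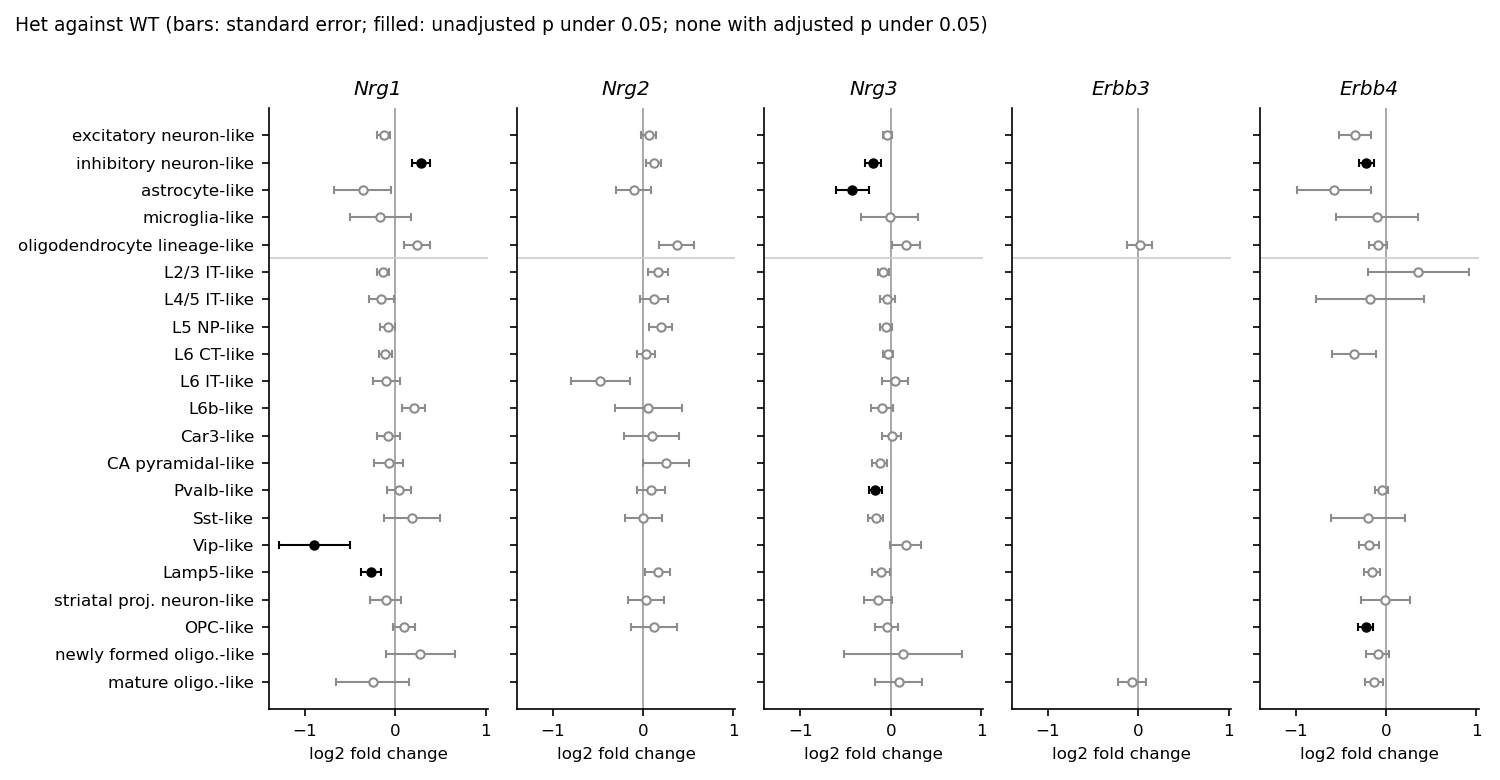
Log2 fold changes of Het against WT (horizontal axis, edgeR, bars are standard errors) for 5 members (panels) in 5 broad and 16 finer classes (rows). Filled points have an unadjusted p under 0.05, and rows without a point did not pass the filter on low counts. The 8 filled points include Nrg1, Nrg3 and Erbb4 in inhibitory neuron-like nuclei, and 0 of the 77 points had an adjusted p under 0.05.

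Males and females were compared for their response to genotype. Of 77 member pairs, 1 passed the test of the sex by genotype term, Nrg1 in L4/5 IT-like nuclei (log2 difference of the 2 effects, female minus male, 0.81, standard error 0.19, edgeR adjusted p = 0.0213). In males, WT animals had 7114, 7136 and 8269.6 CPM and Het animals 4791, 4912 and 6155. In females, WT animals had 4538, 4654 and 6534 CPM and Het animals 5909.9, 6504 and 6734, and the ranges overlapped. In this class 62 of 4090 genes (1.52%) passed this test, against 68 of 77299 pairs in all classes (0.088%). With no upper limits on UMIs or genes the term was 0.24 with an edgeR adjusted p of 0.824, and the call was lost without any 1 of 7 animals (WT male 2, WT females 1 and 3, Het males 1 and 2, Het females 2 and 3), an alternative chosen after seeing the data. WT females 1 and 2 had 26 and 30 of these nuclei, while WT male 3 had 198.

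**Figure D5:**
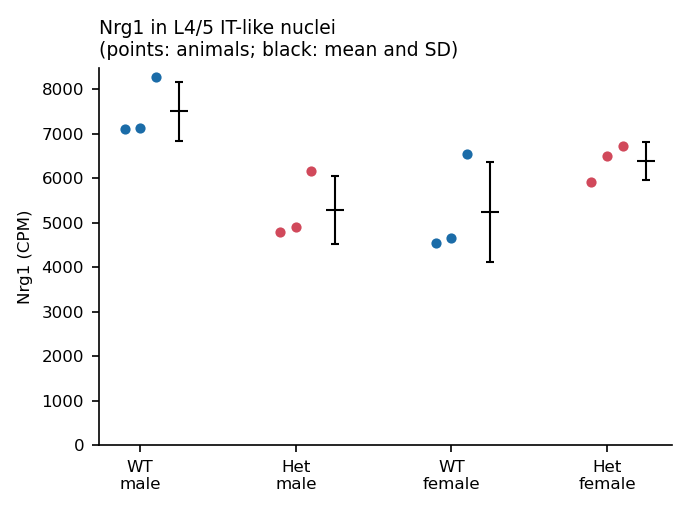
Nrg1 in L4/5 IT-like nuclei in CPM (vertical axis) by genotype and sex (horizontal axis). Points are animals and black marks the mean and SD of 3 animals. WT males average 7507 CPM and Het males 5286, WT females 5242 and Het females 6383.

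The wider pathway was described from a list of 45 other gene symbols, of which 44 were found, since Erbin was also listed under its former symbol. Of these, 38 were tested in at least 1 class, in 333 gene and class pairs. None was called higher or lower in Het by edgeR, and 24 pairs (7.21%) had an unadjusted p under 0.05, beside 6.58% of all pairs. DESeq2 called 0 of the 756 pairs with an adjusted p, where it called 0.0422% over all genes, and 25 of 866 pairs (2.89%) had an unadjusted p under 0.05, against 1.23% of all pairs. Over the pairs that pass the filter these shares were 5.41% (18 of 333) and 4.36%. By role, 0 of 48 pairs of other ErbB ligands, 0 of 5 of Egfr, 0 of 40 of sheddases such as Adam17 and Bace1, 0 of 179 of adaptors and kinases, 0 of 36 of negative regulators and 0 of 25 of scaffolds were called. At an unadjusted p under 0.05 there were 11 of 48 pairs for the other ligands, 5 of 25 for scaffolds, 3 of 40 for sheddases, 4 of 179 for adaptors and kinases, 1 of 36 for negative regulators and 0 of 5 for Egfr.

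The 4 pairs with the smallest p included Tmeff2 in 2 classes. Tmeff2 encodes a transmembrane protein with an EGF-like domain. It was at 877 to 1971 CPM in OPC-like nuclei of 5 WT (median 1461) and 576 to 1003 of 6 Het animals (median 803), a log2 fold change of -0.87 (standard error 0.19, edgeR adjusted p = 0.111). In Sst-like nuclei it was at 1699 to 2254 CPM in WT (median 2018) against 1248 to 1741 CPM in Het animals (median 1566, log2 fold change -0.41, standard error 0.11, edgeR adjusted p = 0.269). In both classes the lower end of WT overlapped the upper end of Het. Tgfa, a ligand of the EGF receptor, was low in inhibitory nuclei, at 5.34 ± 1.86 CPM in WT against 9.81 ± 1.23 CPM in Het animals (0.81, standard error 0.24, edgeR adjusted p = 0.397). Erbin, a scaffold that binds ErbB2, was at 108 ± 43.7 CPM in WT against 206 ± 46.0 CPM in Het astrocyte-like nuclei (0.83, standard error 0.25, edgeR adjusted p = 0.539).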

How the data were processed

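Per the labels and the study's methods, ScaleRna was used by the authors for mapping to mm10 and counting, and the deposited values are expected counts of UMIs per gene and nucleus, in which a UMI that fits several genes is divided among them. No normalization had been applied. Nuclei had been called with CellFinder to account for ambient RNA. Both the barcodes in the files (78743) and those left by the study's filters (34860) are fewer than the nuclei its methods state for this age, for a reason not given in the sources used here. Whether doublets were removed before deposit is not known, and no doublet caller was run. Nuclei with mixed markers were left out instead, and doublets within a class remain.

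The study's limits were applied: 800 to 6000 UMIs, 300 to 3000 genes, no more than 1% of UMIs mitochondrial, and log genes divided by log UMIs no lower than 0.9. The setting with no upper limits on UMIs or genes also left out this last limit. Nuclei with at least 3 UMIs from at least 2 markers of a broad class and at least 75% of broad-class marker UMIs in it, and with a finer class 1.5 times over the next in observed over expected marker UMIs, served as seeds. Every nucleus then went to the seed class that made its marker UMIs most likely, at a probability of at least 0.95, unless under 75% of its broad-class marker UMIs were of its own class with at least 3 UMIs of others, and finer classes needed at least 2 UMIs from 2 markers. Of 32016 nuclei, 8088 had a marker share from 65 to 85%. Of 25435 nuclei in broad classes with finer ones, 5255 had a finer-class probability from 0.8 to 0.99. This likelihood step and these limits were set after class sizes were seen and before levels of the members or differences between genotypes were computed. The members and gene lists were chosen with earlier results of these data known.

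Counts were summed per animal and class, rounded and tested with edgeR 4.0.16 (TMM, filterByExpr, robust quasi-likelihood, genotype as the only term, Benjamini-Hochberg over all genes of a class), with DESeq2 1.42.0 as an alternative. Standard errors were taken as the fold change over the square root of F. Classes were compared within animals by exact sign-flip tests. Of 55336 features, 54587 had the same identifier in GENCODE M21. The edgeR and DESeq2 tests were run on simulated counts and the sign-flip test on simulated normal values, with outcomes not given here. Named were the 6 members, the 3 genes most like each member at 20 CPM or more, and the 4 pathway pairs with the smallest p. A gene that this rule names is not reported here. Other settings were tried as described in the closing section. Analyses ran in R 4.3.3 and python 3.11.15.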

Additional observations from a re-analysis of the deposited data

Results flagged for a closer look

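In 11 of 167 groups of 4 to 6 animals of 1 class and genotype (6.59%), an animal lay far from the others of its group in the level of a member, where chance alone gives about 1 in 20. In neurons, Nrg1 was at 1129 CPM in inhibitory neuron-like nuclei of Het male 3 (others 1679.8 to 1867) and Nrg3 at 4466 CPM in those of WT male 2 (others 5829.6 to 6549.6). Erbb4 was at 96.5 CPM in L5 NP-like nuclei of Het male 2 (others 5.68 to 26.2), at 235 CPM in its Car3-like nuclei (others 0 to 20.8) and at 312 CPM in L6b-like nuclei of WT male 2 (others 0 to 33.6), from 39, 29 and 18 UMIs. Nrg1 was at 7052 CPM in Car3-like nuclei of WT female 1 (others 4468 to 5389.5), which had 10 such nuclei, and at 945 CPM in Pvalb-like nuclei of Het female 2 (others 554 to 698).

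In the oligodendrocyte lineage, Nrg1 was at 2056 CPM in OPC-like nuclei of Het female 3 (others 1729.5 to 1816). Mature oligodendrocyte-like nuclei of WT male 1, of which there were 22, held 415 CPM of Nrg1 (others 49.1 to 158) and 279 CPM of Erbb3 (others 151 to 187). Over the whole lineage, Erbb3 was at 86.2 CPM in WT female 3 (others 113 to 127).

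The effect of genotype on Nrg1 in L4/5 IT-like nuclei differed between sexes by the interaction term (0.81 on the log2 scale, female minus male, edgeR adjusted p = 0.0213). Its edgeR adjusted p ranged from 0.00355 to 0.131 when 1 animal was left out.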

How the results depend on the processing

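The 18 differences between classes that passed kept their direction under every alternative run, namely another pseudocount, other class limits, means per nucleus, each animal left out, and inhibitory nuclei without striatal projection neuron-like ones (chosen after seeing the data). The number that passed was 18 to 21 in these. With WT animals only, 0 passed. Of the 30 exact tests, 17 were then at the smallest p that 5 or 6 animals allow, and the lowest adjusted p was 0.0721. The 17 include Erbb2 and Erbb3 in astrocyte against excitatory, both near 0 CPM, which did not pass with all animals. They do not include Nrg2 in any pair of neuronal classes. The log2 differences were then -1.82 (Nrg1), 0.29 (Nrg2), -0.41 (Nrg3) and 6.87 (Erbb4) for inhibitory against excitatory, -1.47 (Nrg1), -0.58 (Nrg3) and 3.12 (Erbb4) for astrocyte against excitatory, and -3.74 (Nrg1), -3.70 (Nrg2), -3.07 (Nrg3) and 3.56 (Erbb3) for mature oligodendrocyte against OPC. They were 1.12 (Nrg1), 0.34 (Nrg2), -0.17 (Nrg3) and 5.10 (Erbb4) for Pvalb against Sst, and -0.70 (Nrg1), -0.29 (Nrg2) and 0.23 (Nrg3) for L6 CT against L2/3 IT.

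The count of members called between genotypes was 0, but 1 (Nrg1, inhibitory) without the filter on low counts, and 0 to 1 with 1 animal left out, the 1 being Erbb4 in inhibitory nuclei without WT male 2. The cause was not tested. The share of all genes called with 1 animal left out is not given here. Over all genes, 357 of 468195 pairs were called without the filter, 150 of 355061 by DESeq2 and 188 of 135656 with no upper limits on UMIs or genes, against 63 of 77299. With no upper limits, 16 of 84 member pairs had an unadjusted edgeR p under 0.05, against 8 of 77. The share of all pairs at that p was not computed for this setting. Other fold changes that moved by over 1.5 times were Nrg3 in Pvalb-like (-0.11 without the filter, -0.0943 with no upper limits on UMIs or genes) and excitatory nuclei (-0.0728 with no upper limits, -0.0553 without WT male 2, -0.0240 without WT male 1 or Het female 1), and Erbb4 in mature oligodendrocyte-like nuclei (-0.0448 without the filter, -0.0812 to -0.0892 without WT male 3, WT female 3, Het male 2 or Het female 2). Small fold changes turned in sign for 2 pairs, Erbb4 in Pvalb-like nuclei (0.0135 without the filter) and Erbb3 in the oligodendrocyte lineage (-0.0390 with the replicate block, -0.0104 at a marker share of 90%, and -0.0549 to 0.0611 with 1 animal left out, negative without WT female 3, Het male 1 or Het female 3). Same-numbered animals of the genotypes deviated together with r from -0.41 to 0.26 in excitatory and -0.25 to 0.25 in inhibitory nuclei, so the numbers were not taken as pairs. With the replicate block 0 of 74 member pairs and 56 of 75774 pairs were called, and L6 IT-like nuclei could not be fitted. Depth limits Erbb2 in all classes and Erbb3 outside mature oligodendrocyte-like nuclei and the lineage as a whole. Also under the filter on low counts was Erbb4 in L5 NP-like, L6 IT-like, L6b-like, Car3-like and CA pyramidal-like nuclei. The same held for Nrg2 in microglia-like, Vip-like, newly formed and mature oligodendrocyte-like nuclei.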
